A study of Mus musculus with 2 samples.

Results

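The genes examined here encode the enzymes and transporters that carry glucose into the cell, break it down to pyruvate and lactate, or divert it into the pentose phosphate pathway. Membership was set by a list of 35 gene symbols covering glucose and lactate transport, glycolysis and the pentose phosphate steps, matched to array probe sets whose platform annotation names exactly 1 gene. In this way 31 of the 35 genes were measured, with 38 probe sets, among 19935 genes measured in all. Gapdh was named only by probe sets shared with other genes and is described apart, and Gpi1, Eno1 and G6pdx were not analysed here.

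The arrays compared a pair of populations sorted by flow cytometry from the bone marrow of 6-week-old ddY mice, an outbred stock, with no other treatment or genetic change named in the labels. After a density gradient, mononuclear cells were labelled with antibodies to RANK (the RANKL receptor, needed to form osteoclasts) and c-Fms (the M-CSF receptor) and collected as RANKhighFmslow and RANKlowFmshigh cells. They are called the RANKhigh and the c-Fmshigh population here. There was 1 array per population and the labels do not say how many mice were pooled, so every value is a single reading, without replicate error, test or p-value. Values are the deposited linear intensities, averaged over the probe sets of a gene on the log2 scale, and every difference is the log2 intensity on the RANKhigh array minus that on the c-Fmshigh array.

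Glycolysis splits glucose into pyruvate with a net gain of ATP and NADH, and its flux is set largely at hexokinase, phosphofructokinase and pyruvate kinase, each of which exists as several isozymes encoded by separate genes. The pentose phosphate pathway branches off after the hexokinase step, yields NADPH in its oxidative arm and interconverts sugars in its non-oxidative arm. Monocytes and neutrophils rely heavily on glycolysis, and mature red cells, which lack mitochondria, depend on it entirely and use a characteristic set of isozymes.

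The transcripts of the sorted receptors and of marrow cell types bear on how the values are read. Csf1r, which encodes c-Fms, stood at 164 in RANKhigh and 821 in c-Fmshigh cells, in the direction of the sort, whereas Tnfrsf11a, the RANK gene, was not higher in the RANKhigh sort (104 and 119). Of 9 measured monocyte markers, 9 were lower on the RANKhigh array, with a median difference of -1.57 and summed intensities of 7710 and 24603 (RANKhigh, then c-Fmshigh). The other cell type lists were higher there: 10 of 10 neutrophil markers (median 2.48, sums 43642 and 13950), 7 of 7 eosinophil markers (1.87, 12331 and 1283), 8 of 8 B lineage markers (2.06, 10564 and 2746), 8 of 8 T and NK cell markers (1.39, 2920 and 1021) and 8 of 8 erythroid markers (2.38, 12532 and 3075). Proliferation genes differed less, with 7 of 7 higher and a median of 0.30. Of all 19935 genes, 9377 were lower and 10313 higher. The marker lists were chosen with earlier results of these data known, so their directions are a description and not a test. The 95th percentile of olfactory and vomeronasal receptor genes on each array (83.7 and 81.8) served as a guide to background. Of the T and NK cell markers 1, Cd4, did not exceed it on either array, and in each of the other marker lists 0 did so. In such bulk samples fewer cells of a type and less RNA per cell cannot be told apart. The part of cell types in the differences below was not tested.

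Genes of the pathway differed in both directions. Among the lowest on the RANKhigh array, relative to the other, were Pgam1, Hk2, Pkm, Pgk1 and Pfkp, and among the highest Slc2a3, Pgls, Bpgm and Slc16a1. A size of at least 2-fold was reached in the lower direction by 3 of the 31 genes (9.68%), Pgam1, Hk2 and Pkm, against 2.38% of all genes measured and 4.29% of those whose mean level reached the median of all values. In the higher direction it was reached by 2 (6.45%), Slc2a3 and Pgls, against 2.44% and 4.31%. With a size of 1.5-fold the counts were 8 lower (25.8%, against 7.05% of all genes) and 4 higher (12.9%, against 6.16%). Counting any difference, 20 of 31 (64.5%) were lower, against 47% of all genes, and the median difference was -0.23, against 0.01. Genes of this pathway are often strongly expressed. Of the 31, 27 reached the median level and 8 were among the 10% of genes with the highest mean level. Among the 8 is Hk1, through a probe set of doubtful annotation (2954 and 2817), described below. Its other probe set read 321 and 218, below the level at which those 10% begin (604). Of the 10% of genes with the highest mean level, 62.5% were lower by any amount and the median was -0.12. Of the same set 5.82% lay 2-fold or more below and 3.51% above, and 16.4% and 7.87% by the 1.5-fold size. The share of lower members was close to that of this set, but most members do not belong to it. Of the 10557 genes whose mean level reached the median, 5443 were lower, with a median of -0.02. Of the 27 members at that level, 18 were lower. The part of expression level in the differences was not tested. Just inside the 2-fold size lay Pkm (2.01-fold lower), Hk2 (2.05-fold lower) and Pgls (2.27-fold higher), and just outside it Bpgm (1.95-fold higher), Pgk1 (1.58-fold lower) and Slc16a1 (1.58-fold higher).

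**Figure D1:**
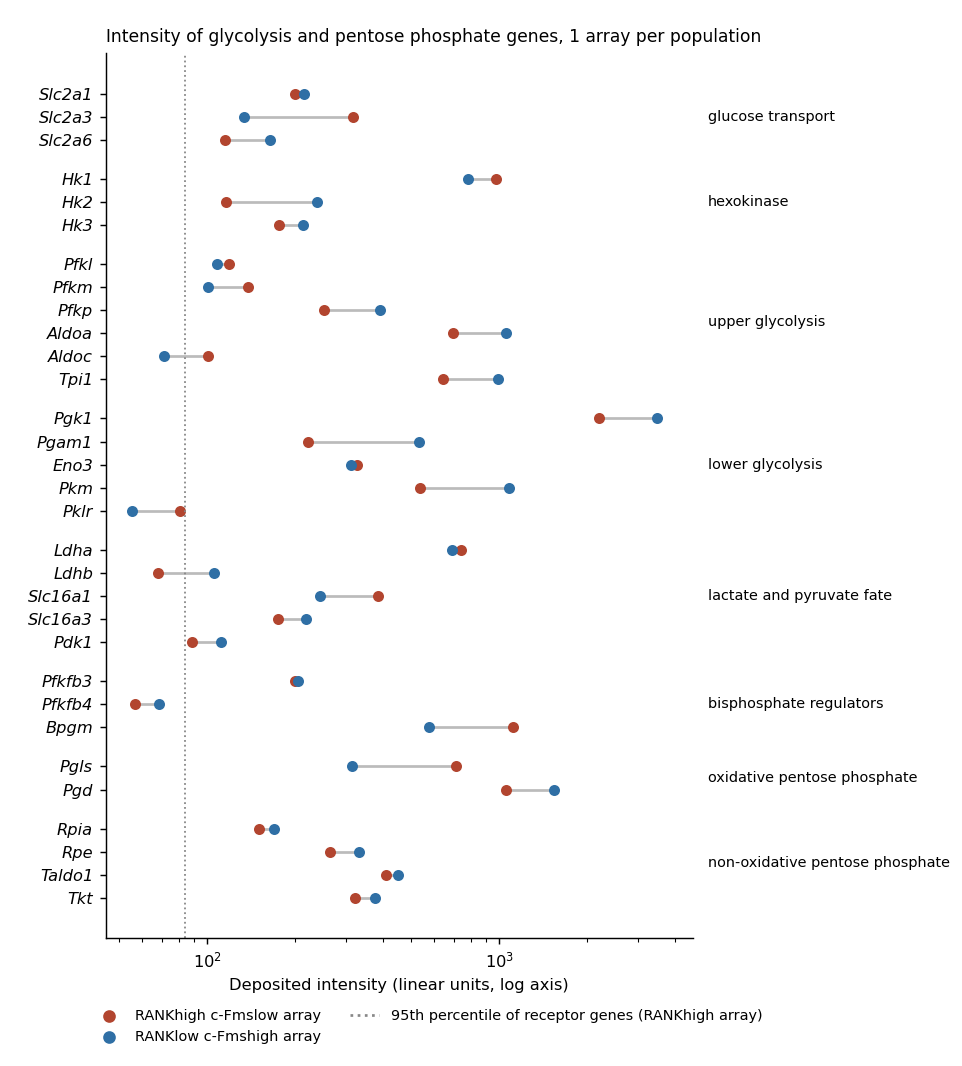
Deposited intensity (linear units on a log axis) of the 31 measured genes on the RANKhigh array (red) and the c-Fmshigh array (blue), grouped by step; each point is 1 array and the dotted line is the 95th percentile of olfactory and vomeronasal receptor genes on the RANKhigh array (83.7). The blue point lies to the right for Aldoa, Tpi1, Pgk1, Pgam1 and Pkm, the red point for Slc2a3, Bpgm and Pgls.

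**Figure D2:**
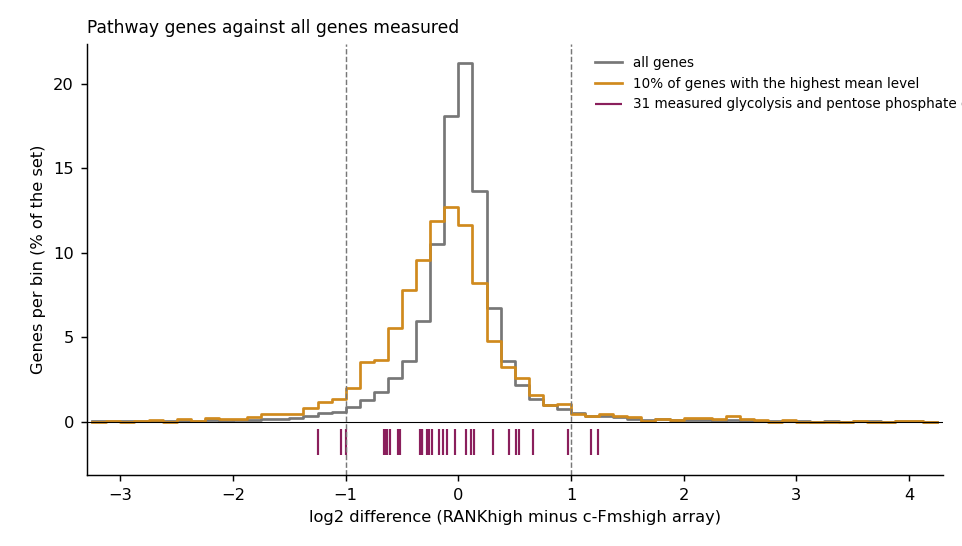
Distribution of the log2 difference (RANKhigh minus c-Fmshigh array) over all 19935 genes (grey) and over the 10% with the highest mean level (orange), as a percentage of each set per bin, with the 31 pathway genes as ticks. The strongly expressed genes are shifted to the left (median -0.12), and 3 ticks lie at or beyond -1 and 2 beyond 1.

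Glucose enters blood cells through facilitative transporters of the Slc2a family. Slc2a3, which encodes the high-affinity transporter GLUT3, read 316 for the RANKhigh and 134 for the c-Fmshigh population. It was 2.37-fold higher in RANKhigh cells, the largest excess among the 31 genes, and 98.4% of all genes had a lower difference. Slc2a1, which encodes the widely expressed GLUT1, was nearly level at 200 and 214 (-0.10). Slc2a6, which encodes a transporter found in leukocytes, went the other way at 115 in RANKhigh against 164 in c-Fmshigh cells (1.43-fold lower). The 3 transporters thus covered the whole range from -0.52 to 1.24.

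Hexokinases trap glucose in the cell by phosphorylating it. Hk2, the inducible isozyme, stood at 116 in RANKhigh against 237 in c-Fmshigh cells and was 2.05-fold lower in the former. Hk3, an isozyme of myeloid cells, was lower by a smaller margin at 177 against 213 (-0.26). Hk1, the housekeeping isozyme and the one used by red cells, was higher at 974 against 783 (0.31), but this average joins a pair of unlike probe sets. The probe set annotated with the full set of Hk1 sequence records read 321 and 218, a difference of 0.56. The other read 2954 and 2817 (0.07), and its annotation rests on a single sequence record that is also listed for 16 probe sets naming the ribosomal protein gene Rpl17. Those 16 probe sets had intensities from 2331 to 8176 on the RANKhigh array and differences between 0.09 and 0.17. Without the doubtful probe set, a setting chosen after the values were seen, Hk1 was 0.56 higher. In either case Hk1 and Hk2 lay on opposite sides, with a gap between their differences of 1.35, or 1.59 without that probe set.

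The upper part of glycolysis turns glucose phosphate into triose phosphates and holds the committed step, phosphofructokinase. Its platelet-type isozyme gene Pfkp read 251 in RANKhigh against 391 in c-Fmshigh cells, a deficit of 1.56-fold. The muscle-type gene Pfkm read 138 and 101 (1.37-fold higher) and the liver-type gene Pfkl 119 and 108 (1.10-fold higher). Aldoa, the aldolase of most tissues and of red cells, was 1.52-fold lower at 695 against 1059. Tpi1, which encodes triose phosphate isomerase and has no isozyme, was lower by nearly the same factor, 1.55-fold, at 643 against 995. The brain-type aldolase gene Aldoc read 101 against 71.1. The latter did not exceed the receptor genes on its array (81.8), so that Aldoc was at least 1.23-fold higher.

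The lower steps recover ATP, and their median difference was -0.66. Pgam1, phosphoglycerate mutase of non-muscle cells, stood at 222 against 530, 2.38-fold lower, and only 1.28% of all genes had a lower difference. Its 3 probe sets gave -1.04, -1.69 and -1.03, and 2 of them had nearly the same intensities (248 and 248 on the RANKhigh array, 509 and 509 on the other), so that they are not independent readings. Pkm, which encodes the M1 and M2 forms of pyruvate kinase, stood at 537 against 1078 and was 2.01-fold lower. Its probe sets gave -1.03 and -0.97, and it fell short of 2-fold when only the brighter one was used (-0.97) or when the arrays were quantile normalized (-0.91). Pgk1, phosphoglycerate kinase, was 1.58-fold lower at 2207 against 3484, with 3 probe sets between -0.67 and -0.65. These too had nearly the same intensities (2205 to 2208 on the RANKhigh array, 3449 to 3502 on the other) and are not independent readings. The reference gene table lists pseudogene copies of Pgam1, Pgk1, Aldoa, Ldha and Ldhb, and how far such copies share these probe sets cannot be read from the annotation.

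Eno3, the muscle-type enolase gene, was level at 326 and 310 (0.07). Pklr, which encodes the liver and red cell forms of pyruvate kinase, read 80.9 and 55.5. Both values lay below the receptor genes on their arrays (83.7 and 81.8), so no fold is given for Pklr. Over the 14 measured genes of glycolysis proper, from hexokinase to pyruvate kinase, 8 (57.1%) were lower in RANKhigh cells by any amount, between the 47% of all genes and the 62.5% of those with the highest mean level. A 1.5-fold deficit was reached by 7 of the 14 (50%), against 7.05% and 16.4% of the same sets, and a 1.5-fold excess by 0, against 6.16% and 7.87%. These 7 were Hk2, Pfkp, Aldoa, Tpi1, Pgk1, Pgam1 and Pkm, with differences from -1.25 to -0.61. Hk2, Pfkp, Aldoa and Pkm are each the lowest of the members measured at their step, so they do not describe whole steps. Tpi1, Pgk1 and Pgam1 are the only members measured at theirs. From another list, Pgk2 did not exceed the receptor genes on either array (30.8 and 34.6), and Pgam2 was higher (0.70). Of the 14 genes 6 were higher, namely Hk1, Pfkl, Pfkm, Aldoc, Eno3 and Pklr. The pool of 14 was not among the groupings fixed beforehand, and it leaves out transport and lactate genes such as Slc2a3 and Ldha. At the enolase step only Eno3 was measured. Shared probe sets naming Gapdh, counted apart, ran from -0.57 to -0.07. The monocyte markers were also lower on the RANKhigh array, with a median of -1.57.

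**Figure D3:**
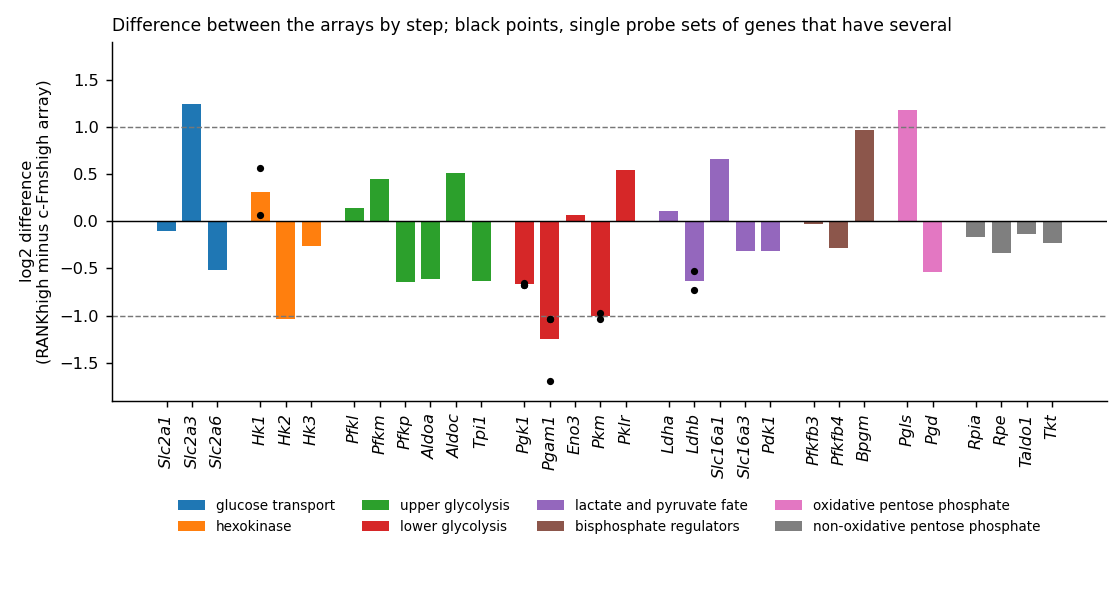
Log2 difference (RANKhigh minus c-Fmshigh array) of each measured gene as a bar, coloured by step; black points are the single probe sets of genes that have several, and dashed lines mark 2-fold. Bars of Pgam1, Hk2 and Pkm reach -1 or beyond, those of Slc2a3 and Pgls exceed 1, and the Pgam1 probe sets run from -1.69 to -1.03.

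Gapdh, glyceraldehyde phosphate dehydrogenase, sits between the upper and lower steps and is often used as a reference transcript. It was named by 25 probe sets, each shared with other gene models, so that none was counted among the 31 genes. All 25 were lower on the RANKhigh array (24 under quantile normalization). Several of them had nearly the same intensities, for example 8295 to 8298 on the RANKhigh array and 9030 to 9033 on the other. The 25 are therefore not independent readings, and their number adds little to the direction. Their differences formed separate ranges. In the 14 whose annotation does not include the gene models Gm6981, Gm6498 or Gm5177 the differences ran from -0.14 to -0.07. In the 11 that name at least 1 of those models they ran from -0.57 to -0.37. This division was made after the values were seen. Which of the ranges describes Gapdh itself was not tested.

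Promoter sequences are shown for the genes at least 2-fold apart that have one in the reference table and for Ldha, the member with the most copies of the motif searched. They come from RefSeq (GRCm38.p6) and span 250 bases before to 50 after the start site; where a gene has several starts, the one farthest upstream is shown. Capitals mark ACGTG on either strand, the core of the element bound by hypoxia-inducible factors, which overlaps the E box CACGTG. The windows are chr6:82774405-82774704 (minus strand) for Hk2, chr19:41911621-41911920 (plus) for Pgam1, chr9:59656326-59656625 (plus) for Pkm, chr7:46845554-46845853 (plus) for Ldha and chr8:71591934-71592233 (plus) for Pgls.
Hk2: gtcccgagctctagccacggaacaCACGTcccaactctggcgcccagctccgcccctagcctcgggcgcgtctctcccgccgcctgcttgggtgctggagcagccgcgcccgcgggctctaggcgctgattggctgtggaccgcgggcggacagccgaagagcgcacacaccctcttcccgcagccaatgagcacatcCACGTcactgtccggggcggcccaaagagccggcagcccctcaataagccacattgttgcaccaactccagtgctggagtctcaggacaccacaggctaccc
Pgam1: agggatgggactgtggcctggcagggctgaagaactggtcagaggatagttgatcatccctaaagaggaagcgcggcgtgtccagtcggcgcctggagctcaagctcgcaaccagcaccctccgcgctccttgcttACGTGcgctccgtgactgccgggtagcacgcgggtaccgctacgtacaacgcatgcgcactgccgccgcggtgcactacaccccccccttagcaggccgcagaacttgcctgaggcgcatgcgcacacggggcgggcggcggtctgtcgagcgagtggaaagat
Pkm: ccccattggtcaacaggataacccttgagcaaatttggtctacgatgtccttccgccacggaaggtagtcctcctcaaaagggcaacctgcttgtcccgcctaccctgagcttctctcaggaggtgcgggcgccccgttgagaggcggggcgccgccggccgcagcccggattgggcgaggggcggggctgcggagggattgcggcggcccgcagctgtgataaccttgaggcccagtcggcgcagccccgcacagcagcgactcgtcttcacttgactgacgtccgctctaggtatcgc
Ldha: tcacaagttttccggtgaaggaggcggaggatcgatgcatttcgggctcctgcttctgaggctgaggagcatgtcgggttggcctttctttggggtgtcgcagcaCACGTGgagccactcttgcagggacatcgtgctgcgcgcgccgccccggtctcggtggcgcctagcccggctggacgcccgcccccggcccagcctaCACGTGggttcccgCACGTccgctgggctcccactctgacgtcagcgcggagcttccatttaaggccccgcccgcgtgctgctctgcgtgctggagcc
Pgls: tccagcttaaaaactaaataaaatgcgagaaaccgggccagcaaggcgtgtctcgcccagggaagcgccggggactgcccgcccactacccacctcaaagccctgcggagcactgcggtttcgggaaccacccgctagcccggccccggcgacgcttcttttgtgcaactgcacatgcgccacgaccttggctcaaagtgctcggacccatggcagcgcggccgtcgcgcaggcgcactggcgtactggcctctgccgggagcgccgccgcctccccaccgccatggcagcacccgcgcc

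The Hk2 window held 2 copies of ACGTG and the Pgam1 window 1, while the Pkm and Pgls windows shown held 0. A second Pkm window further downstream held 2. The Ldha window held 5 matches, 4 of them in 2 copies of CACGTG. Of the 34 members in the table, Slc2a3 not being among them, 16 (47.1%) had ACGTG in at least 1 window, against 21.8% of all genes there. The GC box GGGCGG was present for 27 members (79.4%, against 38.2%), CACGTG for 4 (11.8%, against 8.09%) and GAGGAA, a PU.1 core with its flanking bases, for 9 (26.5%, against 31.3%), each searched on both strands. The members' windows were also richer in G and C, with a median of 60.3% against 52.7%, and the part of base composition in these shares was not tested. Whether the matches go with the differences between the arrays was not tested.

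Lactate dehydrogenase turns pyruvate into lactate and so regenerates NAD for the trunk. Ldha, its main glycolytic subunit, read 741 in RANKhigh and 689 in c-Fmshigh cells and so did not share the deficit of Pkm just upstream. Ldhb, the subunit of oxidative tissues, read 68.1 against 106. As the first value did not exceed the receptor genes, Ldhb was at least 1.26-fold lower. Of its 2 probe sets, 1 read 117 against 169 (-0.53), and the other was below the receptor genes on both arrays (39.6 and 65.9). Pdk1, a kinase that keeps pyruvate out of the mitochondria, stood at 89.1 and 112 (1.25-fold lower).

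The lactate transporters differed by isoform. Slc16a1, which encodes MCT1, stood at 385 in RANKhigh and 244 in c-Fmshigh cells (1.58-fold higher). Slc16a3, which encodes MCT4, the exporter typical of strongly glycolytic cells, was 1.25-fold lower at 175 against 218. The accessory proteins that bring these transporters to the membrane were divided as well. Basigin, the partner of MCT1 and MCT4, was 1.71-fold higher (Bsg, 943 against 552). Embigin, the partner of MCT2, was 2.18-fold lower (Emb, 1805 against 3942), and Slc16a7, which encodes MCT2 itself, was 2.16-fold lower (104 against 224).

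Isozymes of the same step were then set against each other by their differences between the arrays, since intensities of different probe sets cannot be compared. The 31 genes held 8 isozyme families with 14 pairs, and both genes were above the receptor genes on both arrays in 10 pairs, to which the gaps given here are limited. They were widest between Slc2a3 and Slc2a6 (1.76), Hk1 and Hk2 (1.35) and Slc2a3 and Slc2a1 (1.34). Pfkm and Pfkp were 1.09 apart and Slc16a1 and Slc16a3 0.98. The smallest of the 10 gaps, 0.31 between Pfkm and Pfkl, was close to the SD of 0.27 among probe sets of a single gene. That SD describes single differences, not gaps, within the same 2 arrays. It holds no error between arrays, sorts or animals, so a larger gap is not thereby shown to exceed the noise. With no replicates, none of these gaps was tested.

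**Figure D4:**
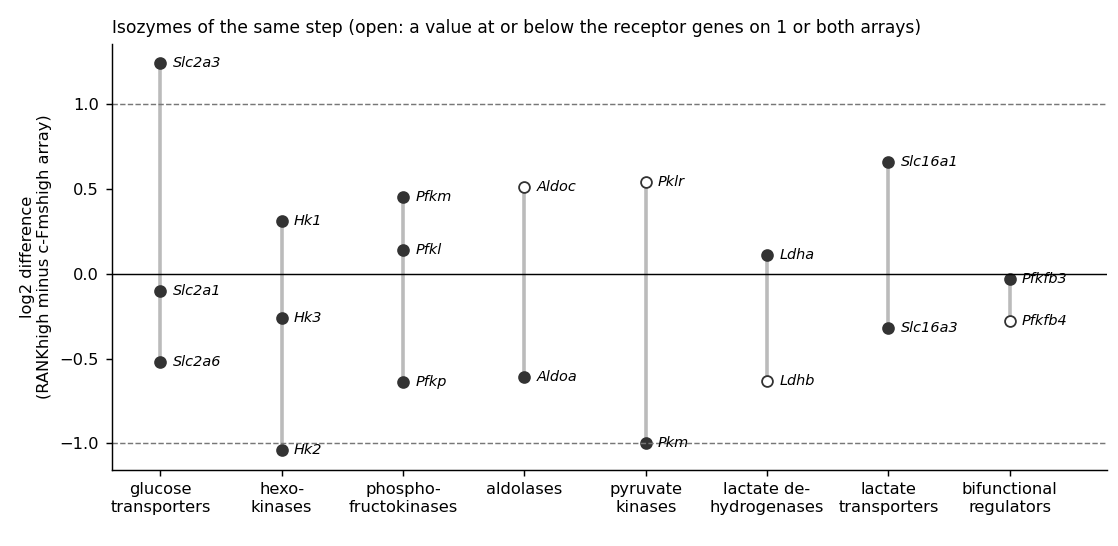
Log2 difference (RANKhigh minus c-Fmshigh array) of the genes of each isozyme family, 1 point per gene joined by a line; open points had a value at or below the receptor genes on 1 or both arrays, and dashed lines mark 2-fold. The widest spread is that between Slc2a3 (1.24) and Slc2a6 (-0.52).

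Regulators of flux through phosphofructokinase and of oxygen release were examined next. Bpgm, which makes the bisphosphoglycerate that lowers the oxygen affinity of haemoglobin in red cells, stood at 1120 in RANKhigh and 574 in c-Fmshigh cells. It was 1.95-fold higher and passed 2-fold only under quantile normalization (1.07). The erythroid markers, whose cells use Bpgm, had a median of 2.38, but the other cell type lists apart from monocytes were higher as well (medians from 1.39 to 2.48). The part of any cell type in the Bpgm difference was not tested. Pfkfb3, the bifunctional enzyme that raises the activator of phosphofructokinase, was level at 200 and 205 (-0.03). Pfkfb4 was below the receptor genes on both arrays (56.5 and 68.6), and no fold is given.

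The pentose phosphate genes were lower by small amounts, apart from Pgls. Pgls, which encodes 6-phosphogluconolactonase, the second enzyme of the oxidative arm, stood at 711 in RANKhigh and 313 in c-Fmshigh cells (2.27-fold higher). Pgd, which acts directly after it and yields NADPH, went the other way at 1060 against 1543 (1.46-fold lower). These neighbouring steps therefore differed in opposite directions, with both genes well above the receptor genes on both arrays. In the non-oxidative arm all 4 genes were lower by less than 1.5-fold. Rpe, ribulose phosphate epimerase, read 263 against 332 (-0.34) and Tkt, transketolase, 320 against 375 (-0.23). Rpia, ribose phosphate isomerase, read 150 against 169 (-0.17) and Taldo1, transaldolase, 409 against 450 (-0.14).

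Other genes of glucose metabolism were taken from 6 further lists with 73 measured genes. Emb and Slc16a7 were the 2 genes with a deficit of 2-fold or more in RANKhigh cells (2.74%, against 2.38% of all genes), 0 had such an excess (against 2.44%), and the median was 0.00. The most even list was that of pyruvate entry into mitochondria, where 9 of 11 genes were lower, against 47% of all genes. Of these 9, 0 were lower by 2-fold, and the median of the list was -0.27, against 0.01 for all genes. This list was singled out of the 6 by these same values. Pdha1 and Pdhb, the subunits of pyruvate dehydrogenase itself, read 449 against 705 (-0.65) and 234 against 338 (-0.53). Dlat, the core of that complex, read 237 against 329 (-0.47), and Pdp1, the phosphatase that activates it, 184 against 257 (-0.49).

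Of 16 other isozymes and pathway enzymes, 7 were lower and 9 higher, and 0 reached 2-fold. Of all genes, 2.38% did so in the lower and 2.44% in the higher direction. Minpp1, a phosphatase that can act on bisphosphoglycerate, read 302 against 155 (0.97), and Adpgk, an ADP-dependent glucokinase, 230 against 139 (0.73). Pgam2, the muscle-type mutase, read 136 against 83.8 (0.70), opposite to Pgam1, and Tktl1, a transketolase-like gene, 107 against 188 (-0.81). Among 13 sugar and monocarboxylate transport genes, Slc2a4, which encodes the insulin-responsive GLUT4, read 142 against 113 (0.33) beside Emb, Slc16a7 and Bsg.

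Gluconeogenesis genes stayed within 1.5-fold (7 of 7), a size that only 7.05% of all genes reached in the lower and 6.16% in the higher direction. Of the 7, 3 did not exceed the receptor genes on either array. Pcx, pyruvate carboxylase, read 107 against 83.9 (0.35), Pck2 153 against 134 (0.19) and G6pc3 334 against 359 (-0.11). Of 12 genes of glycogen and glycerol phosphate metabolism 0 reached 2-fold, against 2.38% of all genes in the lower and 2.44% in the higher direction. Ugp2, which makes the UDP-glucose used for glycogen, read 486 against 790 (-0.70), the phosphoglucomutase gene Pgm2 368 against 543 (-0.56), the glycogen phosphorylase gene Pygb 191 against 243 (-0.35) and the glycogen synthase gene Gys1 129 against 107 (0.28).

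Transcription regulators known to act on glycolytic genes were also within 2-fold (14 of 14 genes, median 0.10), as were 18974 of all 19935 genes. Hif1a, the oxygen-regulated subunit of hypoxia-inducible factor 1, was 1.36-fold lower on the RANKhigh array at 409 against 556. Myc, which promotes glycolytic gene expression in dividing cells, was 1.74-fold higher at 710 against 409, next to a proliferation list with a median of 0.30. Mlxip, a glucose-sensing factor, was 1.69-fold higher (349 against 206) and its partner gene Mlx 1.49-fold lower (145 against 216).

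**Figure D5:**
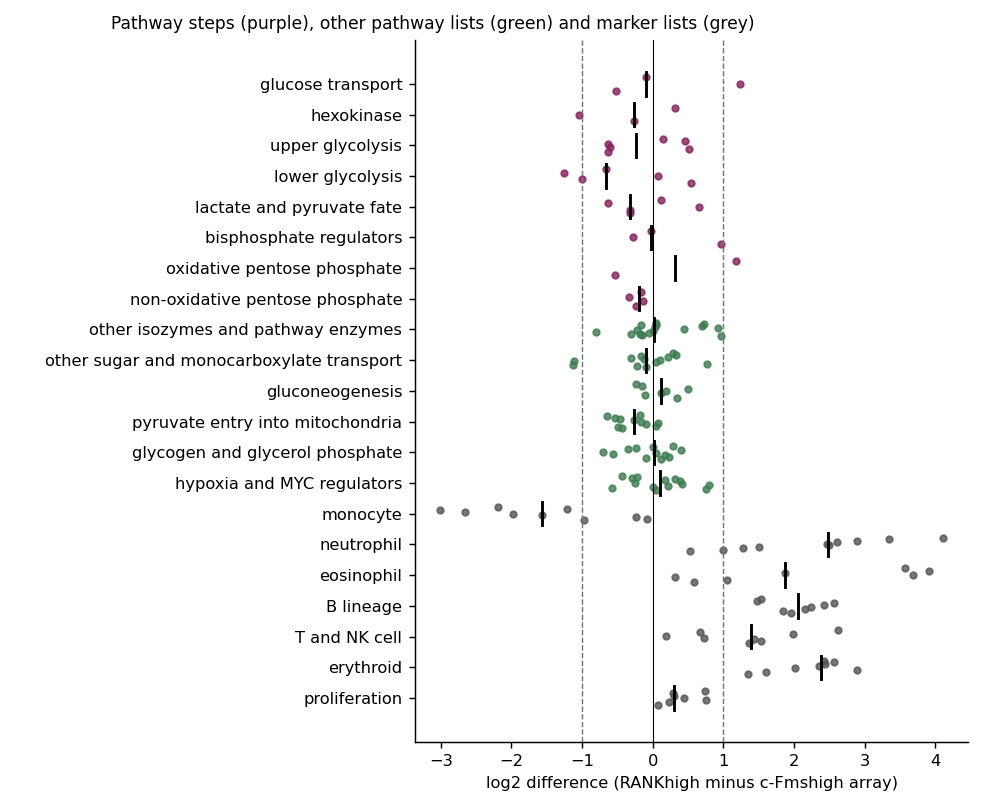
Log2 difference (RANKhigh minus c-Fmshigh array) of every measured gene in the pathway steps (purple), the other lists of glucose metabolism (green) and the marker lists (grey), with each list's median as a black bar; vertical dashed lines mark 2-fold. Pathway medians lie between -0.66 (lower glycolysis) and 0.32 (oxidative pentose phosphate), whereas marker medians run from -1.57 (monocyte) to 2.48 (neutrophil).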

How the data were processed

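Gene expression was measured with single-channel arrays, 1 per sorted population. The deposited values are linear intensities, with GCOS 1.4 and RMA named in the submitters' processing notes. Their order, and how the values became linear, is not given in the sources used here, and the normalization between arrays is the authors'. The deposited intensities were put on the log2 scale with no pseudocount or rescaling, in Python 3.11.15. The platform annotation (2016) gave a single gene for 21780 of the 28815 probe sets. The symbols of all 31 members matched the reference gene table. A size rule of 2-fold (1 on the log2 scale) was applied to every gene. The arithmetic was checked on simulated data, which says nothing of the error of single arrays. Where the lower value lay at or below the 95th percentile of 1193 olfactory and vomeronasal receptor genes on its array (83.7 and 81.8), the fold is a bound. Named are all measured members, the sort markers, and up to 4 genes of each other list with the largest difference at a mean level of at least 93.6, the median of all values. Members and lists were chosen with earlier results of these data known. For arrays there is no depth to state, and precision is limited by having 1 per group.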

Additional observations from a re-analysis of the deposited data

How the results depend on the processing

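Results were recomputed under 9 alternatives, 1 of them (leaving out the doubtful Hk1 probe set) chosen after seeing the data. Of 442 values, 432 moved by less than 0.27 on the log2 scale, the SD among probe sets of one gene, or, for counts, by no more than 1.5 times. Many of them could not move, so this count does not measure precision. Choosing the brightest probe set cannot alter the 26 members with 1 probe set. A filter on level leaves single-gene differences as they were, and centring cancels in every isozyme gap. Leaving out the Hk1 probe set bears only on values that include Hk1. Of the members at least 2-fold apart, 0 changed sign. With 1.5-fold in place of 2-fold, 8 members were lower and 4 higher. Among genes with a mean level at or above the median, the upper glycolysis median was -0.61 in place of -0.23 and that of the bisphosphate regulators 0.47 in place of -0.03, since Aldoc and Pfkfb4 drop out. The other 6 values that moved did so with low values raised to the receptor gene level: the differences of Pklr (0.03), Ldhb (-0.34) and Pfkfb4 (0.03), and the gaps between these and Pkm, Ldha and Pfkfb3 (1.04, 0.44 and -0.06). Pfkfb4 was the only member to change sign under any scaling, probe set or floor setting. Pkm left the 2-fold set with the brightest probe set (-0.97) and under quantile normalization (-0.91), which brought Bpgm in (1.07). No scaling moved the median of all genes by more than 0.1. No paired analysis was possible because each population has 1 array, and no replicate could be left out for the same reason.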
